A study of Rattus norvegicus with 12 samples.

Results

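The estrogen receptors Esr1, Esr2 and Gper1, the related receptors Esrra and Nr2f2, the receptor cofactor Nrip1 and the estrogen-linked genes Greb1, Pgr, Trh and Tff3 were followed across 12 testis arrays. Every probe set whose only symbol in the platform annotation was one of these names was taken, whatever its level, which gave 13 probe sets for the 10 genes, out of 31099 probe sets and 14217 genes with a probe set of their own. The RNA came from whole testes of male Sprague-Dawley rats, all raised on casein AIN-93G diet through lactation and killed at postnatal day 34. From postnatal day 21 to 33 the casein group ate casein AIN-93G, and the soy group ate the same diet made with soy protein isolate (SPI), which carries plant isoflavones, in place of casein. The casein with estradiol and soy with estradiol groups ate these diets while 17beta estradiol was infused under the skin from mini-osmotic pumps at 10 µg per kg per day. Each group held 3 arrays, and whether each array was a separate animal, or the groups without estradiol carried empty pumps, was not given in the sources used here.

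Estradiol acts through Esr1 and Esr2, nuclear receptors that bind DNA as dimers, recruit coactivators or corepressors and change transcription, and Gper1 is a membrane receptor proposed to carry faster signals. In the rodent testis Esr1 is known from Leydig and peritubular cells and Esr2 from Sertoli and germ cells. Nrip1 represses receptor-driven transcription and is itself induced by estrogen in other tissues, as are Greb1 and Pgr, which are classical targets. Isoflavones bind both nuclear receptors, and the study compared soy feeding in the prepubertal testis with the action of a selective estrogen receptor modulator, a ligand that is agonist in some settings and antagonist in others.

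Infused estradiol lowered Esr1 and Trh and raised Nrip1 on both diets. Greb1 rose on the soy diet, by 1.00 log2, on 1 of its 2 probe sets. With soy alone Esr1 (−0.30), Trh (−0.24) and Nrip1 (−0.08) were not called, Greb1 was lower than on casein on 1 probe set, and Tff3 was higher. Nr2f2 was higher with soy on 1 of its 3 probe sets, by 0.58, with −0.04 and −0.003 on the others. Estradiol raised the same probe set on casein, by 0.68, and both differences were taken from the same casein arrays. Pgr and Gper1 were not called in any of the 6 comparisons.

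Promoters of 7 of the 10 genes were found in the RefSeq table of rat build GRCr8, and 4 are shown (Esr1, Trh, Nrip1 and Tff3). These genes were called for estradiol or soy. Esr2, also called for estradiol on soy, is not shown. Each runs 5′ to 3′ on the strand of the gene, from 250 bases before to 50 bases after its start. Capitals mark the arm of the estrogen response element, GGTCA on either strand, and the GC box bound by Sp1, GGGCGG on either strand.
Esr1 (chr1:43641845-43642144, plus strand): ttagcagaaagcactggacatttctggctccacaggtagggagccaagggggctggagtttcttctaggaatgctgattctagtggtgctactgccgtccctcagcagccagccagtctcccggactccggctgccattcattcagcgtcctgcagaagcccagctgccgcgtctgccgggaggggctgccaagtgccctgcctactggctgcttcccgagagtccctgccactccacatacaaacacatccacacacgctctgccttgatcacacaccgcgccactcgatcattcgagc
Trh (chr4:126301713-126302012, minus strand): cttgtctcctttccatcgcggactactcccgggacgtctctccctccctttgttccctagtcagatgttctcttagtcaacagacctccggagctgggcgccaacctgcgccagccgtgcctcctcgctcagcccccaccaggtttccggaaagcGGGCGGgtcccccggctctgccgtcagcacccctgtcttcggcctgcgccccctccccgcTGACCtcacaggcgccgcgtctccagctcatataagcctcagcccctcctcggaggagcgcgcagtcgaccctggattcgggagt
Nrip1 (chr11:28466363-28466662, minus strand): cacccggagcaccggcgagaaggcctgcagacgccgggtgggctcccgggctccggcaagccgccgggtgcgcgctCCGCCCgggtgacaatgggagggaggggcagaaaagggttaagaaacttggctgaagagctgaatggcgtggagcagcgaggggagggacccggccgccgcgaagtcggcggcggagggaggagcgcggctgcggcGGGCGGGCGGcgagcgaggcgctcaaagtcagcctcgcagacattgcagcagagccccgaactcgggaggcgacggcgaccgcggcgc
Tff3 (chr20:9199284-9199583, minus strand): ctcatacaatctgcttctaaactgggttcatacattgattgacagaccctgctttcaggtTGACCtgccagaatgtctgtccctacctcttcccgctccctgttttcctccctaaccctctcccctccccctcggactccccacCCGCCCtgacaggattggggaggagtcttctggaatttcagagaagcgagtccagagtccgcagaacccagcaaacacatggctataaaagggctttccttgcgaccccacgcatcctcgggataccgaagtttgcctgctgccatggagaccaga

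The full palindrome, GGTCANNNTGACC, was in 0 of the 7 promoters and in 0.0269% of all 33469 promoters of this length. The single arm was in 3 of the 7 (Trh, Tff3 and Esr2, the last with 2) and in 40.5% of all promoters. The GC box was in 5 of the 7 and in 33.1% of all; the 3 matches in Nrip1 include 2 that overlap each other, and no arm overlapped a GC box. In Trh the arm lay at −35 to −31 from the start. Esr1 held neither motif in this window. Greb1, Nr2f2 and Gper1 were not matched.

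Values are log2 probe set intensities after quantile normalization, and a probe set was called when its moderated limma test, fitted over all 31042 probe sets outside the controls, gave a Benjamini-Hochberg adjusted p under 0.05. Arrays of a group correlated at 0.988 to 0.997, and the soy with estradiol arrays were the least alike. Replicate 2 of casein with estradiol stood apart by striated muscle markers (mean 7.02, other arrays 5.22 to 6.07), and it and replicate 1 of soy with estradiol by peritubular myoid markers. The mean levels of Leydig, Sertoli and spermatid markers were at least 9.06 in every array. Background was not measured, so probe sets whose mean lay below 5.69, the 30th percentile of all means, may be near it, and their differences can understate a change. The probe sets of Esr1, Esr2, Gper1 and Pgr and 1 of the 3 of Nr2f2 lay below that level. In whole-testis RNA, fewer cells of a type and less RNA per cell cannot be told apart.

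**Figure D1:**
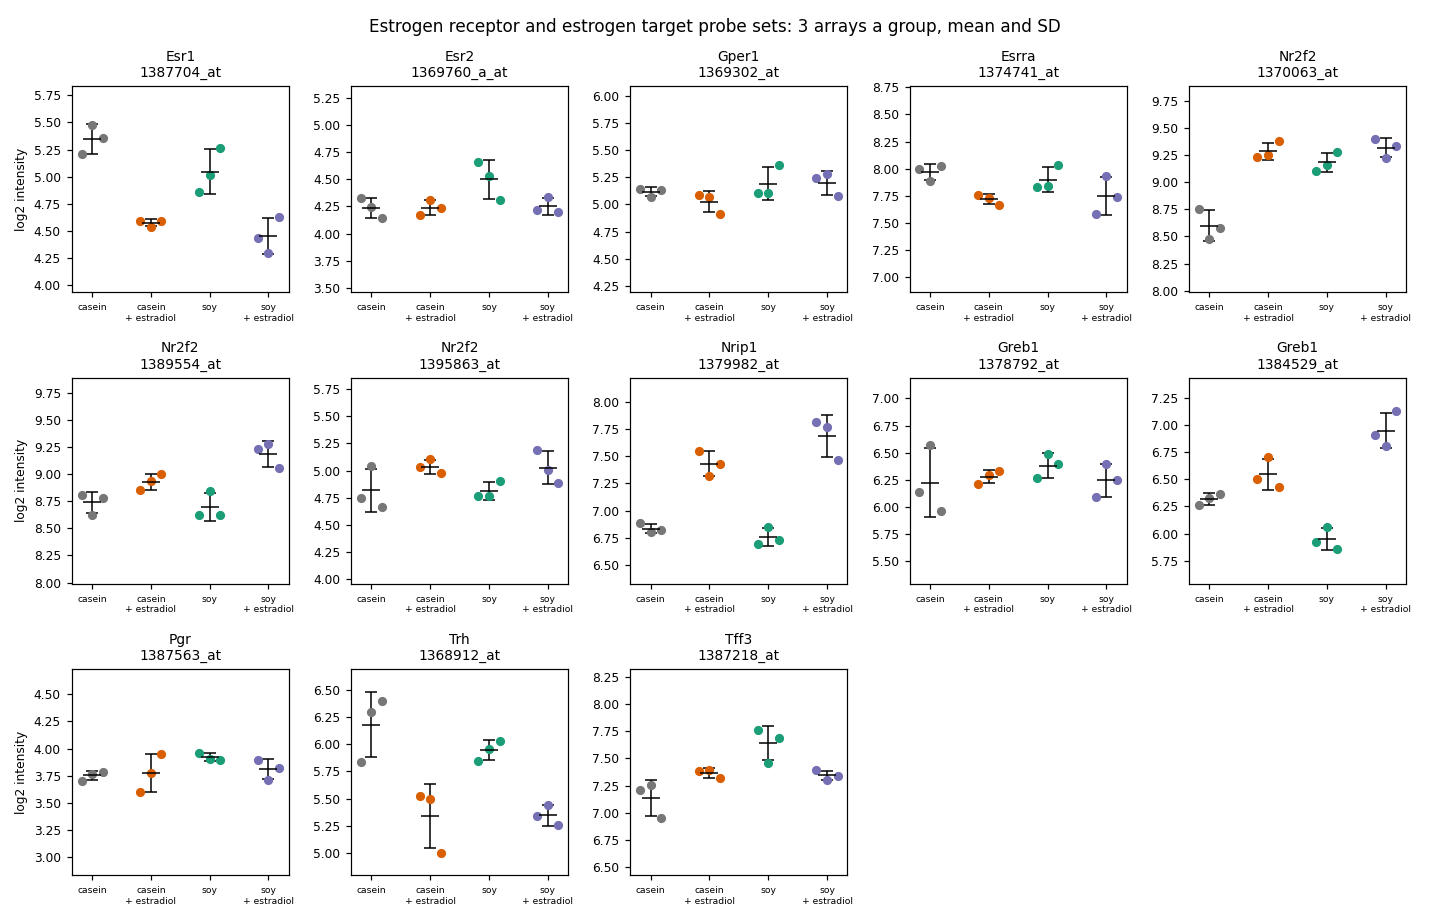
Log2 intensity (y axis, the same 1.9 log2 span in every panel) of each of the 13 probe sets in the 4 groups of 3 arrays; points are arrays, bars the mean and SD. Esr1 and Trh sit lower and Nrip1 higher in both estradiol groups, with no overlap with the matching diet group, and probe set 1384529_at of Greb1 spans 5.86 on soy to 7.12 on soy with estradiol.

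On the casein diet, the arrays with and without estradiol asked how the hormone alone changed these genes. Of the 13 probe sets 2 rose (Nrip1 and 1 of Nr2f2) and 2 fell (Esr1 and Trh), which is 30.8% of them. Over all probe sets 32.0% were called, 16.5% higher and 15.5% lower, close to the share of the members. With the deposited values 7 of the 13 were called, 4 higher and 3 lower, beside 10610 of all 31042 probe sets. On soy 3 rose (Nrip1, Greb1 and another probe set of Nr2f2) and 4 fell (Esr1, Esr2, Trh and Tff3), 53.8% against 36.6% of all probe sets, 19.1% higher and 17.5% lower. The median difference of the members was 0.06 on casein and −0.11 on soy, beside 0.01 and −0.02 over all probe sets.

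Esr1, the main nuclear estrogen receptor of the male tract, read 5.21, 5.48 and 5.35 in the casein arrays and 4.59, 4.54 and 4.60 in casein with estradiol. On soy it read 4.86, 5.01 and 5.27, and with estradiol 4.43, 4.29 and 4.63. Estradiol arrays lay below the matching diet arrays without overlap. The fall was 0.77 ± 0.11 (SE) on casein, a 1.71-fold decrease (limma adjusted p = 0.000325), and 0.60 ± 0.11 on soy, 1.51-fold (limma adjusted p = 0.00119). All these values are below 5.69. The difference between the diets in this effect was 0.18 and was not called (95% interval −0.16 to 0.51).

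Leydig cell markers moved with Esr1. Of 8 of 8 listed markers measured, 5 fell and 1 rose on casein and 6 fell and 1 rose on soy, beside 20.6% and 22.2% of all 14217 genes that fell. Their mean level went from 9.80–9.92 to 9.12–9.43 log2 on casein and from 9.77–9.90 to 9.06–9.37 on soy. Of the 7 peritubular myoid markers, all measured, 0 were called on casein and 1 rose on soy. Of all genes 16.3% rose on casein and 20.3% on soy. The highest mean levels, 8.96 and 8.80, were in the pair of arrays named above. Replicates 1 and 3 of casein with estradiol read 8.35 and 8.36, below the casein arrays (8.54 to 8.57). Replicates 2 and 3 of soy with estradiol read 8.35 and 8.54, beside 8.42 to 8.53 on soy. The part of either cell type in the Esr1 values was not tested. Without the 2 arrays with the highest myoid levels, left out together after their levels were seen, Esr1, Nrip1 and Trh stayed called on both diets.

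Esr2, the receptor of Sertoli and germ cells, was among the dimmest members. Its casein arrays read 4.32, 4.24 and 4.14, those of casein with estradiol 4.17, 4.31 and 4.24, of soy 4.66, 4.53 and 4.31, and of soy with estradiol 4.22, 4.34 and 4.20. Only the soy group stood above the rest, and soy replicate 3 fell within the range of the others. Estradiol on soy lowered it by 0.25 (limma adjusted p = 0.0414). The call was lost without soy replicate 1 or 2 (adjusted p = 0.176 and 0.0982), soy with estradiol replicate 1 or 3 (0.106 and 0.110), casein replicate 2 (0.0522), or casein with estradiol replicate 1 or 3 (0.0504 and 0.0521). It was also lost without the 2 arrays named above (0.116) and in a fit of the soy groups alone (0.0842). Soy against casein differed by 0.26 (adjusted p = 0.0872); this was called with the deposited values (0.0136), with median-centred arrays (0.0200) and when soy replicate 3 was left out (0.0393), over a range of 0.0136 to 0.294.

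Gper1, the membrane receptor, ranged only from 4.91 to 5.37 over the 12 arrays. Its estradiol differences were −0.09 on casein (95% interval −0.28 to 0.10) and 0.01 on soy (−0.18 to 0.20). Esrra, an orphan receptor that does not bind estradiol and drives mitochondrial genes, read 8.00, 7.89 and 8.03 on casein and 7.76, 7.73 and 7.67 with estradiol, without overlap. The difference of −0.25 missed the threshold (adjusted p = 0.0522) and passed it in 10 of 20 alternatives, whose adjusted p ran from 0.0159 to 0.152. On soy the difference was −0.15 and the groups overlapped (adjusted p = 0.223, and 0.0421 without soy with estradiol replicate 2, in a range of 0.0421 to 0.700).

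Nrip1 encodes RIP140, a corepressor that ligand-bound estrogen receptors recruit. Its casein arrays read 6.89, 6.80 and 6.82 and its casein with estradiol arrays 7.55, 7.31 and 7.43. The soy arrays read 6.69, 6.85 and 6.73 and the soy with estradiol arrays 7.82, 7.77 and 7.47. The 6 estradiol arrays were the 6 highest. The rise was 0.60 ± 0.10 (SE) on casein, 1.51-fold (limma adjusted p = 0.000729), and 0.93 ± 0.10 on soy, 1.91-fold (limma adjusted p = 6.74e-05), which ranked 191 among the rises of all probe sets on soy. The diets differed in this effect by 0.33 (95% interval 0.04 to 0.63), a difference that was not called (adjusted p = 0.208). Of 13 measured Sertoli cell markers (14 listed), 10 rose and 1 fell on casein and 10 rose and 0 fell on soy, beside 16.3% and 20.3% of all genes that rose. Their mean level went from 9.41–9.43 to 9.95–10.24 log2 on casein and from 9.29–9.34 to 9.91–10.30 on soy, and their part in the Nrip1 values was not tested.

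Greb1, a receptor-bound cofactor strongly induced by estrogen in breast and uterus, was read by a pair of probe sets that disagreed. On 1384529_at the casein arrays read 6.26, 6.33 and 6.37, casein with estradiol 6.50, 6.71 and 6.42, soy 5.93, 6.06 and 5.86, and soy with estradiol 6.91, 6.81 and 7.12. The soy arrays were the lowest 3 and the soy with estradiol arrays the highest 3, with no overlap between any of the 4 groups. Estradiol raised it on soy by 1.00 ± 0.10 (SE), 2.00-fold (limma adjusted p = 5.66e-05), the rise ranked 121 of all probe sets. On casein the difference was 0.23 (95% interval 0.01 to 0.44; adjusted p = 0.0979), called with the deposited values alone (0.0347) in a range of 0.0347 to 0.325.

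The other Greb1 probe set, 1378792_at, lay between 5.96 and 6.58 in all arrays, and its groups overlapped throughout. Its estradiol difference was 0.06 on casein (95% interval −0.23 to 0.34) and −0.14 on soy (−0.42 to 0.15). The soy interval leaves out the 1.00 seen on 1384529_at. The highest and the lowest value of the probe set were both in the casein group, whose SD was 0.32.

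Pgr, the progesterone receptor and a standard reporter of Esr1 activity in the uterus, was at the bottom of the scale, between 3.60 and 3.96 in all arrays. Its estradiol differences were 0.02 on casein (95% interval −0.15 to 0.20) and −0.11 on soy (−0.28 to 0.06). Soy against casein differed by 0.17 (adjusted p = 0.236), called with the deposited values alone (0.0382). At so low a level a change could be understated, and its size below background is not known.

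Trh, which encodes the precursor of thyrotropin-releasing hormone and is made by Leydig cells as well as the hypothalamus, read 5.84, 6.30 and 6.40 on casein and 5.52, 5.50 and 5.0 with estradiol. On soy it read 5.85, 5.96 and 6.03, and with estradiol 5.34, 5.44 and 5.25. All 6 estradiol arrays lay below all 6 others. The fall was 0.84 ± 0.15 (SE) on casein (limma adjusted p = 0.00125) and 0.60 ± 0.15 on soy (limma adjusted p = 0.00780), on means that crossed 5.69 from above. Like Esr1, Trh fell together with the Leydig markers given above. Other markers fell too: of 10 measured spermatid markers 10 fell on casein and 9 on soy, and 0 rose. Of all genes 20.6% and 22.2% fell on casein and soy. The part of any cell type in the Trh values was not tested. Over the 12 arrays the genes most like Trh were Pitpnm2 (r = 0.98), Hspb6 (0.96), Gata6 (0.96), Slc38a3 (0.96) and Usp30 (0.95) among 16129 probe sets, given as a description over arrays that share the estradiol groups.

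Tff3, a trefoil peptide of mucous epithelia that estrogen induces in breast cancer cells, read 7.21, 7.25 and 6.95 on casein, 7.39, 7.40 and 7.32 on casein with estradiol, 7.76, 7.46 and 7.69 on soy, and 7.39, 7.30 and 7.34 on soy with estradiol. Both estradiol groups sat close together, between the lower casein and the higher soy arrays. Estradiol lowered it on soy by 0.29 (limma adjusted p = 0.0283), and on casein the difference was 0.23 (adjusted p = 0.0819, and 0.0483 with the deposited values, in a range of 0.0483 to 0.318). The soy call was lost with the deposited values (0.0987), centred arrays (0.0748), the soy groups alone (0.0580), or without soy replicate 1 or 3 (0.118 and 0.0907) or soy with estradiol replicate 2 or 3 (0.0602 and 0.0577).

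**Figure D2:**
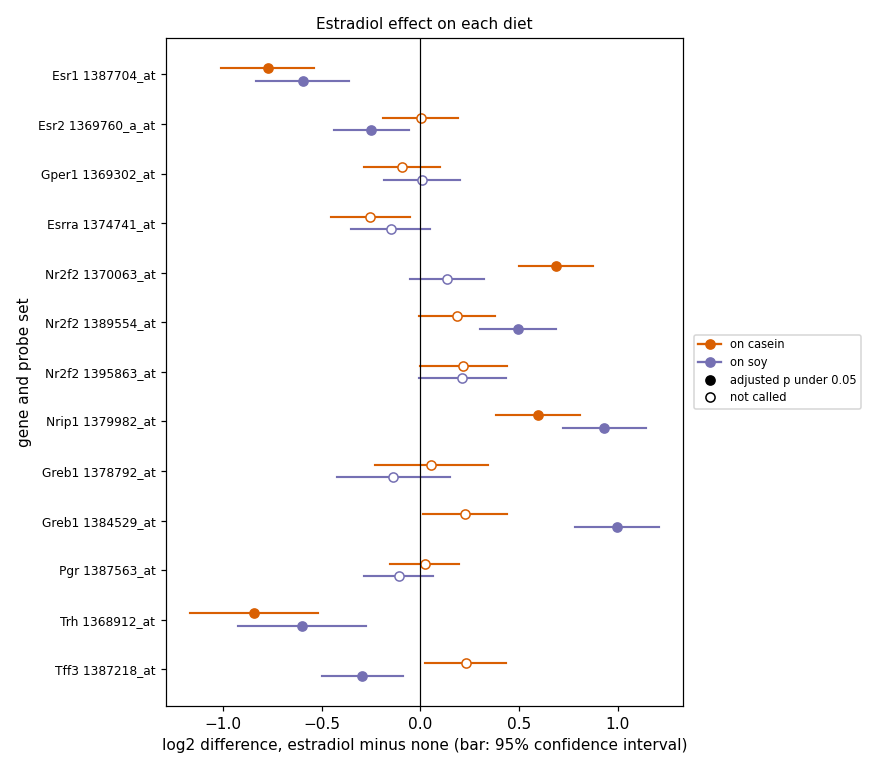
Log2 difference (x axis) of estradiol minus no estradiol for each probe set on casein (orange) and soy (purple); bars are 95% confidence intervals and filled points are called. Esr1 and Trh lie left of 0 and Nrip1 right of 0 on both diets, while probe set 1384529_at of Greb1 is at 0.23 on casein and 1.00 on soy.

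Nr2f2 (COUP-TFII), an orphan receptor of interstitial and stromal cells that can share response elements with estrogen receptors, had 3 probe sets with 3 different patterns. On 1370063_at the casein arrays read 8.75, 8.47 and 8.57, while casein with estradiol read 9.23, 9.25 and 9.37, soy 9.11, 9.16 and 9.28, and soy with estradiol 9.40, 9.22 and 9.33. The casein group alone was low. On 1389554_at the soy with estradiol arrays were the highest, at 9.23, 9.28 and 9.05. The casein with estradiol arrays followed, at 8.85, 8.93 and 9.0. They lay above every array on casein (8.81, 8.63 and 8.78) and on soy (8.62, 8.84 and 8.62).

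Estradiol raised 1370063_at on casein by 0.68 ± 0.09 (SE; limma adjusted p = 0.000158), and on soy the difference was 0.13 (adjusted p = 0.245). It raised 1389554_at on soy by 0.49 ± 0.09 (limma adjusted p = 0.00108), and on casein the difference was 0.19 (adjusted p = 0.125). The third, 1395863_at, was dim, between 4.66 and 5.19, and differed by 0.22 on casein and 0.21 on soy without being called (adjusted p = 0.121 and 0.120; 0.0250 on casein without casein replicate 2). All 3 pointed upward with estradiol on both diets, but no probe set was called on both. The genes most like 1370063_at over the 12 arrays were Setd5 (r = 0.98), Zbtb20 (0.97), Gfm1 (0.97), Ube3a (0.97) and Slc12a5 (0.96), and those most like Greb1 on 1384529_at were Ldlrad3 (0.94), Zfp462 (0.94), Mettl14 (0.93), Dlgap1 (0.93) and Sdc2 (0.93), in each case among 16128 probe sets.

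Soy was set against casein without estradiol to see the diet alone. Of the 13 probe sets 2 were higher, 1 each of Nr2f2 and Tff3, and 1 was lower, of Greb1, or 23.1%, against 7.41% of all probe sets, 4.80% higher and 2.61% lower. With the deposited values 4 were higher and 0 lower, and with centred arrays 3 and 0. Over all probe sets the calls went from 2299 to 5332 with the deposited values and 5301 with centred arrays. How far the members exceeded all probe sets therefore depended on the scaling. The share of rises among all calls went from 64.8% to 62.1% and 48.1%. The median member difference was 0.00, beside −0.01 over all probe sets.

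Tff3 was higher on soy by 0.50 ± 0.10 (SE; limma adjusted p = 0.00813), with no overlap, and remained called in every alternative. Nr2f2 was higher on 1370063_at by 0.58 ± 0.09 (limma adjusted p = 0.00202), with −0.04 (95% interval −0.23 to 0.15) and 0.00 (−0.22 to 0.22) on its other probe sets. Greb1 was lower on 1384529_at by 0.37 ± 0.10 (limma adjusted p = 0.0389), also without overlap. That call was lost with the deposited values, where the difference was −0.27 (adjusted p = 0.0713), with centred arrays (0.0531), without casein replicate 1, 2 or 3 (0.0643, 0.0948 and 0.125), casein with estradiol replicate 1 (0.0574) or soy replicate 1 or 3 (0.116 and 0.144). Its other probe set differed by 0.16 (adjusted p = 0.534).

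The genes that estradiol moved on both diets were not called for soy. Esr1 differed by −0.30 (95% interval −0.54 to −0.06), in the direction of estradiol and not called (adjusted p = 0.114). Trh differed by −0.24 (−0.56 to 0.09) and Nrip1 by −0.08 (−0.29 to 0.13), neither of them called (adjusted p = 0.389 and 0.691). Soy and estradiol effects on casein share the casein arrays as control, so the next comparison set the 2 treatments against each other directly.

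Soy alone differed from estradiol on casein in 6 of the 13 probe sets, or 46.2%, against 29.8% of all probe sets, 13.8% higher and 16.0% lower. Esr1 (by 0.47, limma adjusted p = 0.00669), Trh (by 0.61, limma adjusted p = 0.00977), Esr2 (by 0.26, 0.0398) and Tff3 (by 0.27, 0.0465) were higher on soy. Nrip1 was lower by 0.68 (limma adjusted p = 0.000635) and Greb1 on 1384529_at by 0.59 (limma adjusted p = 0.00120). Nr2f2 on 1370063_at differed between soy and casein with estradiol by −0.10 (95% interval −0.29 to 0.08), 1389554_at by −0.23 (−0.42 to −0.04) and 1395863_at by −0.22 (−0.44 to −0.0016). None of the 3 was called (adjusted p = 0.405, 0.0672 and 0.119). Of the alternatives, 6 called 1389554_at, with the lowest adjusted p at 0.0211, and 1 called 1395863_at (0.0401, in a fit of these groups alone). With the deposited values and with centred arrays 3 were higher and 3 lower.

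The Esr2 call was lost without soy replicate 1 or 2 (adjusted p = 0.166 and 0.0954), casein with estradiol replicate 1 or 3 (0.128 and 0.102) or casein replicate 2 (0.0512), and in a fit of these 2 groups alone (0.0524). That of Tff3 was lost with the deposited values (0.139) and centred arrays (0.109), without casein replicate 1 (0.0545), casein with estradiol replicate 1, 2 or 3 (0.0914, 0.0734 and 0.144), soy replicate 1 or 3 (0.172 and 0.136) or soy with estradiol replicate 3 (0.0564), and without the 2 arrays with high myoid markers (0.0665). The calls of Esr1, Trh, Nrip1 and Greb1 in this comparison held in every alternative that tested them.

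Under estradiol, soy and casein differed in 0 of the 13 probe sets by limma, with 3 at an unadjusted p under 0.05, and in 0.00322% of all probe sets, 1 higher and 0 lower. Greb1 on 1384529_at had the largest of these differences, 0.40 (95% interval 0.19 to 0.61; adjusted p = 0.244), with no overlap between the groups. It was called without the 2 arrays with high myoid markers, at 0.50 (adjusted p = 0.0494). Nr2f2 on 1389554_at differed by 0.26 (0.07 to 0.45) and Nrip1 by 0.26 (0.05 to 0.47), neither of them called (adjusted p = 0.343 and 0.381).

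**Figure D3:**
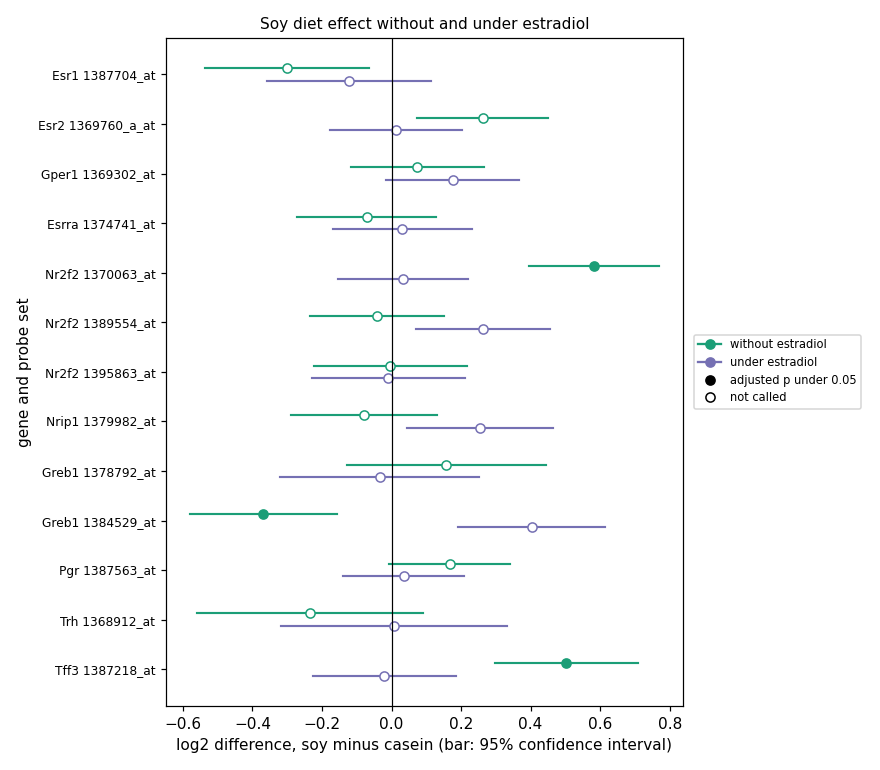
Log2 difference (x axis) of soy minus casein for each probe set without estradiol (green) and under estradiol (purple); bars are 95% confidence intervals and filled points are called. Tff3 and 1370063_at of Nr2f2 are higher and 1384529_at of Greb1 lower on soy without estradiol, and no probe set was called under estradiol.

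The interaction takes the effect of estradiol measured on soy and subtracts its effect on casein. It was called for 2 of the 13 probe sets, 15.4%, against 2.15% of all probe sets, 0.802% higher and 1.35% lower. Greb1 on 1384529_at responded more on soy, by 0.77 ± 0.14 (SE; limma adjusted p = 0.0196), ranked 94 among all probe sets; of this, 0.37 came from the lower soy level and 0.40 from the higher soy with estradiol level. Nr2f2 on 1370063_at responded less on soy, by 0.55 ± 0.12 (limma adjusted p = 0.0409). In the separate groups without estradiol its soy arrays were higher than its casein arrays by 0.58. Tff3 had an interaction of −0.52 (95% interval −0.81 to −0.23), not called (adjusted p = 0.0628, and 0.0378 without soy replicate 2).

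The Greb1 call was lost without casein replicate 3 (adjusted p = 0.0599), casein with estradiol replicate 1 or 3 (0.0637 and 0.0510) or soy replicate 1 or 3 (0.0559 and 0.0511), with differences of 0.71 to 0.76. That of Nr2f2 was lost with the deposited values (0.0595) and centred arrays (0.0644), and without casein replicate 2 or 3 (0.0929 and 0.107), casein with estradiol replicate 1, 2 or 3 (0.0892, 0.0687 and 0.0898), soy replicate 1, 2 or 3 (0.0798, 0.0562 and 0.0975) or soy with estradiol replicate 2 (0.0542). Its other probe sets had interactions of 0.30 (adjusted p = 0.210), the opposite sign, and −0.01 (0.988). With either scaling 1 probe set was higher and 0 lower. Over all probe sets the calls went from 668 to 1141 with the deposited values and 1151 with centred arrays. The share of higher among all calls went from 37.3% to 35.6% with the deposited values and 48.2% with centred arrays.

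**Figure D4:**
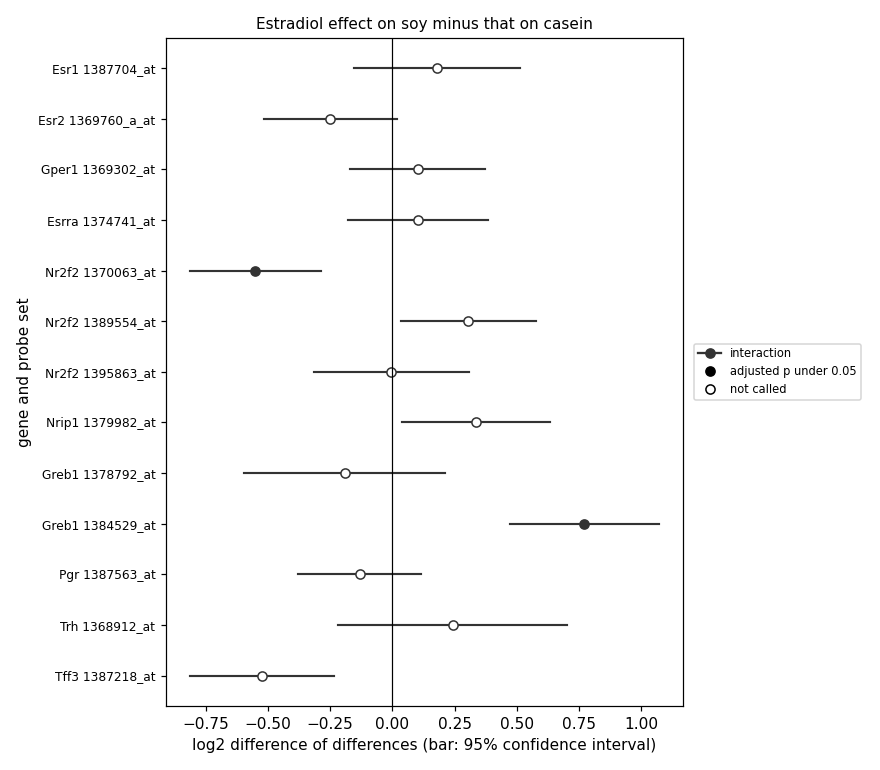
Estradiol effect on soy less the effect on casein (x axis, log2) for each probe set, with 95% confidence intervals; filled points are called. Only 1384529_at of Greb1, at 0.77, and 1370063_at of Nr2f2, at −0.55, are filled.

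Other genes of the pathway were each read on their brightest probe set. Of 25 measured coregulators and chaperones of the receptors (28 listed), 8 rose and 0 fell with estradiol on casein, and 8 rose and 1 fell on soy, beside 16.3% and 20.3% of all genes that rose. The list's median difference was 0.15 and 0.12, beside −0.01 and −0.04 over all genes. In the same arrays the median difference of the Sertoli markers was 0.63 and 0.69 and that of the spermatid markers −0.74 and −0.52, and their part in these values was not tested. Hsp90ab1, a chaperone that holds unliganded steroid receptors, rose by 0.91 (limma adjusted p = 5.25e-05) and 0.87 (8.52e-05) on casein and soy. The acetyltransferase coactivator Ep300 rose by 0.45 and 0.53, and Stub1, a ubiquitin ligase that marks chaperone clients including Esr1, rose by 0.47 and 0.58. Ncoa3, a p160 coactivator, rose by 0.39 on casein (adjusted p = 0.00289) and differed by 0.19 on soy (0.0719). Its interaction was −0.19 (limma adjusted p = 0.374). With 0 genes of this list called in the interaction, a difference between the diets was not shown.

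Of 33 measured estrogen targets known from other tissues (34 listed, 21 of those measured above 5.69), 2 rose and 3 fell on casein and 3 rose and 5 fell on soy. Over all genes 16.3% rose and 20.6% fell on casein, and 20.3% and 22.2% on soy, so fewer of the list were called than of all genes. The list's median difference was −0.08 and 0.02. Ccnd1, which encodes cyclin D1, rose by 0.44 on casein (limma adjusted p = 0.0142) and 0.41 on soy (limma adjusted p = 0.0185). The other risers were the adenosine receptor gene Adora1 on casein, by 0.28, and on soy the chemokine gene Cxcl12, by 0.48, and the prolactin receptor gene Prlr, by 0.29; these 4 are named after their values were seen. Gal, the galanin gene that estrogen induces in the pituitary, fell by 0.75 (limma adjusted p = 0.000729) and 0.58 (limma adjusted p = 0.00276). Igfbp4, which binds insulin-like growth factors, fell by 0.34 on soy (adjusted p = 0.00295) and differed by 0.01 on casein (0.917). The retinoic acid receptor Rara fell by 0.37 on soy (adjusted p = 0.00516) with −0.10 on casein (0.431). The growth factor gene Areg fell by 0.48 and the small heat shock protein gene Hspb8 by 0.53 on casein, both from dim levels, with −0.02 and −0.20 on soy, not called. In the interaction, the direct test of whether the diets differed in these effects, 0 genes of this list were called. Its median SE over all probe sets was 0.13 log2, so a difference between the diets was neither shown nor excluded.

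Of 14 measured orphan receptors and partners or targets of Esrra (15 listed), 0 rose and 5 fell on casein and 2 rose and 4 fell on soy, beside 20.6% and 22.2% of all genes that fell. The list's median difference was 0.10 on casein, opposite in sign to its calls, and −0.11 on soy. The receptor Esrrb fell by 0.38 and 0.39 and the coactivator Ppargc1b by 0.76 and 0.80. Cpt1b, which encodes a mitochondrial fatty acid enzyme of muscle and germ cells, fell by 0.34 and 0.43. Of 10 measured spermatid markers (11 listed), 10 fell on casein and 9 on soy, beside the same shares of all genes. Their mean level went from 12.95–13.05 to 11.84–12.47 log2 and from 12.94–13.01 to 12.05–12.58, and their part in these values was not tested. Nr5a1, the steroidogenic receptor SF-1, rose by 0.31 on soy (limma adjusted p = 0.00288) and differed by 0.13 on casein (0.143). With 0 genes of the orphan receptor list called in the interaction, a difference between the diets was not shown. Of 12 measured genes of thyrotropin-releasing hormone processing and the thyroid axis (14 listed), 1 rose and 1 fell on casein and 2 rose and 1 fell on soy, beside 16.3% and 20.3% of all genes that rose and 20.6% and 22.2% that fell. The list's median difference was 0.01 and 0.00. Dio2, which activates thyroid hormone, fell by 0.47 and 0.54. Thra rose by 0.30 on casein, and Thrb rose by 0.50 and Pam, which amidates peptide hormones, by 0.45 on soy. In the interaction 0 genes of this list were called, so a difference between the diets was not shown for them.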

How the data were processed

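Testis RNA was hybridised to Affymetrix rat arrays. The deposited values are log2 probe set intensities, a scale read from their range; the authors used GCOS, per the submitters' processing notes, and background correction, summarisation and normalization are not given in the sources used here. Of 31099 probe sets, 57 controls were left out. The quartiles differed between arrays by up to 0.185 log2, so quantile normalization was applied in limma 3.58.1 (R 4.3.3). All 4 groups entered 1 linear model with eBayes and a mean-variance trend, 8 residual degrees of freedom, no filter, and 6 comparisons, each adjusted by Benjamini-Hochberg over 31042 probe sets. The procedure was tested on simulated data. The number of arrays limits precision: the median SE of a 2-group difference was 0.09 log2. An exact test of 3 against 3 cannot go below p = 0.1. The p-values measure the spread between these samples, which may be technical.

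The members were fixed by gene symbol, and the members, lists and comparisons were chosen with earlier results of these data known. All member probe sets are named. In each list of other genes, the 3 with the smallest p for estradiol on each diet are named, on its brightest probe set. Likeness is Pearson's r over 12 arrays, among probe sets with 1 symbol above the 30th percentile of means. Alternatives were the deposited values, median-centred arrays, filters on the lowest 30% and 50% of probe sets, no trend, the compared groups alone, a replicate block, each array left out, and, added after the data were seen, the pair of arrays with the highest peritubular myoid markers left out together. Promoters came from RefSeq (GRCr8).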

Additional observations from a re-analysis of the deposited data

Results flagged for a closer look

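The estradiol effect differed between the diets for 2 probe sets, by the test of the interaction itself. For Greb1 on 1384529_at it was 0.77 log2 larger on soy (limma adjusted p = 0.0196), and 5 of the 12 fits that left out 1 array lost the call. For Nr2f2 on 1370063_at it was −0.55 (limma adjusted p = 0.0409), and its neighbouring probe set 1389554_at had 0.30, the opposite sign. The call of 1370063_at was lost in 9 of the 12 fits that left out 1 array and with both other scalings. Groups of 3 arrays were too small to look for single outlying arrays in the member values. The 2 arrays that stood apart above were seen by their striated muscle or myoid marker levels.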

How the results depend on the processing

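Of 22 calls among the 78 member results (13 probe sets in 6 comparisons), 15 held in every alternative that tested them, 7 were lost in at least 1, and 0 changed sign. The 7 were 2 each of Esr2, Tff3 and Greb1 and 1 of Nr2f2, and a further 11 results were called in some alternative only. The probe sets called for estradiol on casein went from 4 to 7 with the deposited values. For estradiol on soy they went from 7 to 3, and for soy against estradiol on casein from 6 to 3, when the lowest 50% of probe sets were left out, a filter that also removes member probe sets. For soy against casein under estradiol, 1 was called in place of 0 without the 2 arrays with the highest myoid markers, an alternative chosen after seeing the data. For the interaction, 1 was called in place of 2 with the deposited values, with centred arrays, with the 50% filter and with the replicate block; leaving out 1 array gave 0 to 2. Over all probe sets, the calls for soy against casein went from 2299 to 5332 with the deposited values and 5301 with centred arrays, and those for the interaction from 668 to 1141 and 1151. The cause was not tested. Same-numbered arrays did not deviate together (18 pairs, r from −0.31 to 0.30, 3 of them over 0.1), so the numbers were not taken to pair samples; the block lost 3 of the 22 calls (Nr2f2 interaction, adjusted p = 0.0548; Greb1 on soy against casein, 0.0584; Tff3 on soy against estradiol on casein, 0.0525) and added 0. Of the 13 probe sets, 5 lay below the 30th percentile of means, where signal over background is least sure.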
